A study of Mus musculus with 8 samples.

Results

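Hearts that had lost both ERRα and ERRγ were compared with hearts of αHetγWT littermates, over all genes and with attention to functions other than energy metabolism and secreted candidate hormones. The comparison used 4 of the 8 heart RNA libraries of the study, the 2 αKOγKO and the 2 αHetγWT libraries, and the other 4 (αHetγKO and αKOγWT) entered only the estimate of spread. The mice were C57BL/6 and 16 days old, and each library was made from pooled heart RNA of 2 to 3 mice by the series' design text and of 3 by the study's methods, so the p-values measure the spread between pools. αKOγKO mice lacked ERRα in every cell (ERRα-/-) and carried ERRγ flox/flox with Myh6-Cre, a Cre recombinase driven in cardiomyocytes, so that ERRγ was deleted in cardiomyocytes and not in the other cells of the heart. αHetγWT mice had 1 functional copy of ERRα and intact ERRγ, so they were not wild type, and their Cre status is not given in the sources used here. An effect of Cre therefore cannot be told apart from that of ERRγ loss. Loss of both receptors is known to lead to fatal heart failure in young mice.

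ERRα and ERRγ are orphan nuclear receptors that bind DNA at a shared element and drive genes of mitochondria and fuel use. In the heart they are also known to bind near genes of the contractile apparatus, of calcium handling and of ion channels. A failing heart is known for a return of fetal genes, for growth of its matrix and for a remodelled cytoskeleton. These are whole-heart RNA libraries, in which fewer cells of a type and less RNA per cell cannot be told apart.

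Levels are given as RPKM (reads per kilobase of gene, scaled to the total counted reads of the library). Changes are log2 fold changes of αKOγKO over αHetγWT ± standard error, with 2 libraries in each group, and a gene passed the test when its adjusted p (edgeR quasi-likelihood F test, Benjamini-Hochberg over all genes tested) was under 0.05. The standard error was derived as the absolute log2 fold change over the square root of the F value of that test. It thus rests on the spread estimated over all 8 libraries. Esrra, which encodes ERRα, was at 1.42 and 1.64 RPKM in αKOγKO and 44.9 and 45.8 RPKM in αHetγWT hearts. Esrrg, which encodes ERRγ, was at 15.2 and 17.6 RPKM in αKOγKO and 6.83 and 6.43 RPKM in αHetγWT hearts, but whole-gene reads do not show whether the floxed exon is missing and give no check of that label. Libraries held 28.2 to 36.8 M (1e6) counted reads, and the αKOγKO pair was the deepest. Reads of Y-linked genes were present in all 8 libraries, while Xist, the RNA of the inactive X chromosome, gave 7142 reads in αKOγKO 1 and at most 14 in any other library, so the sexes in the pools differed.

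Of 15076 genes tested, 3127 were higher and 3237 lower in αKOγKO hearts, so that 42.2% of all genes passed, 20.7% upward and 21.5% downward. The median gene stood at 0.01. When the genes of energy metabolism and the secreted candidates (454 tested, of which 59 were higher and 329 lower) were set aside, 3068 of the remaining 14622 were higher and 2908 lower. Most changes were modest. An increase of at least 2-fold was seen in 1021 genes and a decrease of at least 2-fold in 997, and 119 rose and 63 fell by at least 8-fold. The balance of directions depended on the scaling: with library totals in place of TMM factors 4241 genes were higher and 2451 lower, 63.4% of the calls upward against 49.1%, and the median gene shifted to 0.13. With limma on log2(RPKM + 1) the counts were 4168 and 2424. Without αHetγWT replicate 1, 1895 genes were higher and 2309 lower, and without αHetγWT replicate 2 these counts were 2037 and 2378. Each group of genes below is read against these shares, and a list in which a similar share passed does not stand out from all genes.

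Among the largest rises were genes better known from other tissues. Grin2c, which encodes a subunit of the NMDA-type glutamate receptor, was at 37 and 28.6 RPKM in αKOγKO hearts, against 0.407 and 0.435 RPKM in αHetγWT hearts, a change of 6.16 ± 0.21 (edgeR adjusted p = 1.4e-06). Krt18, an epithelial keratin, was at 64.4 and 38.6 RPKM in αKOγKO and 2.08 and 1.45 RPKM in αHetγWT hearts (4.75 ± 0.36), and its partner Krt8 rose with it, by 3.96 ± 0.56. Both αKOγKO libraries were far above both αHetγWT libraries for these genes.

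Acta1, the actin of skeletal muscle and of the fetal heart, was the most abundant of the 15 largest rises, at 2608 and 1209.7 RPKM in αKOγKO and 64.1 and 49.3 RPKM in αHetγWT hearts (4.96 ± 0.38, and 4.28 without αKOγKO replicate 1). Other members were Bex1, a small X-linked protein named for its expression in brain (44 and 21.6 RPKM in αKOγKO against 0.887 and 1.10 RPKM in αHetγWT, 4.91 ± 0.38, and 4.30 without αKOγKO replicate 1), and Aqp8, a water channel (16.2 and 10.1 against 0.300 and 0.485 RPKM, 4.93 ± 0.46). Bex1 was high in both αKOγKO libraries, with and without Xist reads. Uts2b, which encodes a vasoactive peptide related to urotensin II, was at 17.9 and 16.6 RPKM in αKOγKO and 0.202 and 0.924 RPKM in αHetγWT hearts (4.79 ± 0.50, and 6.28 without αHetγWT replicate 2).

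Rassf6, a Ras-association protein that binds kinases of the Hippo pathway, was at 13.1 and 10.1 RPKM in αKOγKO and 0.175 and 0 RPKM in αHetγWT hearts. Lypd6b, a lipid-anchored surface protein, gave 410 reads over both αKOγKO libraries and 2 reads over both αHetγWT libraries, a ratio after division by the library totals of 166.4 with an exact 95% counting interval of 45.8 to 1378.3. Ppp1r1c, an inhibitor of protein phosphatase 1, gave 387 and 2 reads over the same pairs of libraries, a ratio of 157.0 (43.2 to 1301.3). These intervals cover counting error only. The fitted values of the 3 genes, 6.93 ± 0.76, 7.10 ± 0.70 and 7.03 ± 1.19, depend on the prior count where an αHetγWT library holds no read, and they reached 12.45, 10.42 and 10.34 when the αHetγWT library with reads was left out.

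The remaining rises were Ddn, the postsynaptic protein dendrin (4.78 ± 0.29), Tuba3b, an alpha tubulin (4.97 ± 0.49), Shisal1 (4.30 ± 0.35), and the transcription factor genes Fosb, Fos and Atf3, which are described with the immediate-early genes because they rested on 1 library. Uncharacterised transcripts with the same size of change, 3 among the rises and 1 among the falls, were counted and not named.

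**Figure D1:**
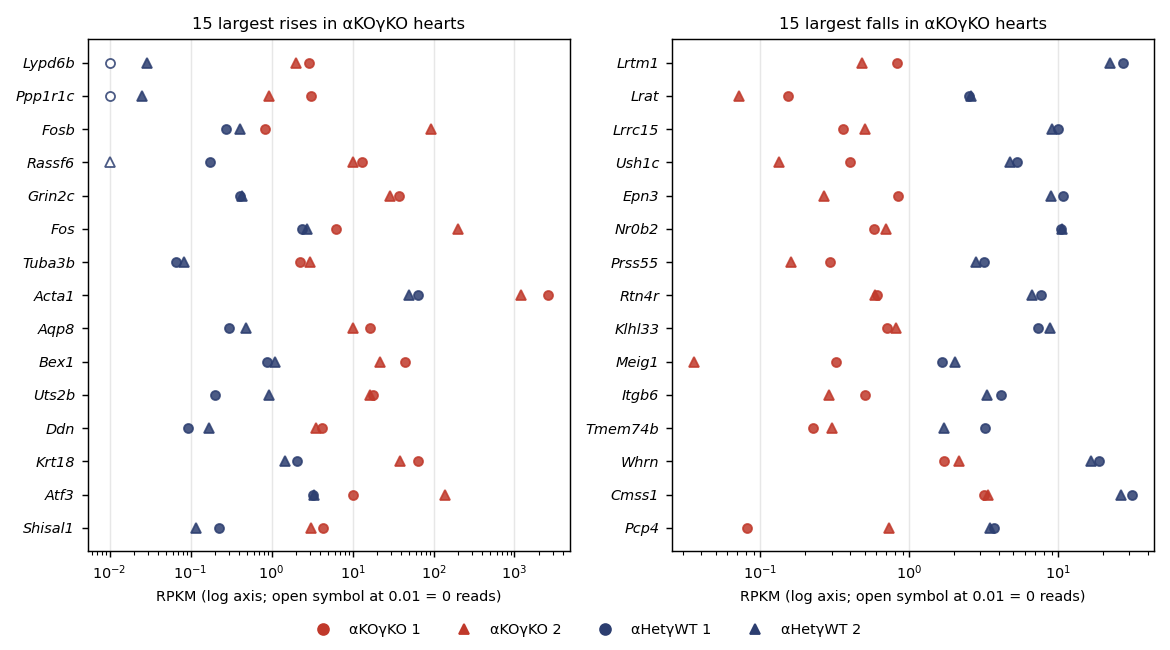
RPKM (log axis) in each of the 4 libraries for the 15 genes with the largest rise and the 15 with the largest fall, ordered by log2 fold change, with open symbols for 0 reads. Genes were taken only where the groups did not overlap and the mean was 1 RPKM or more. Energy metabolism, secreted candidates and uncharacterised transcripts were left out. The lack of overlap between αKOγKO and αHetγWT symbols is thus set by the choice of genes. Fosb, Fos and Atf3 are the rises in which αKOγKO 2 stands far above αKOγKO 1.

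The largest falls included genes of membrane and scaffold proteins. Lrtm1, a leucine-rich repeat membrane protein, was at 0.828 and 0.484 RPKM in αKOγKO and 27 and 22.4 RPKM in αHetγWT hearts, a change of -5.36 ± 0.26 (edgeR adjusted p = 2.1e-06). Lrrc15, another leucine-rich repeat membrane protein, was at 0.357 and 0.507 RPKM in αKOγKO and 10.01 and 9.11 RPKM in αHetγWT hearts (-4.59 ± 0.19). Cmss1 was the most abundant of the 15 largest falls in αHetγWT hearts, and it was at 3.18 and 3.37 RPKM in αKOγKO and 31.5 and 26.4 RPKM in αHetγWT hearts (-3.26 ± 0.13). Both αKOγKO libraries were far below both αHetγWT libraries in each.

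Ush1c and Whrn, which encode harmonin and whirlin, PDZ scaffold proteins best known from the hair bundles of the inner ear, both fell. Ush1c was at 0.398 and 0.133 RPKM in αKOγKO and 5.28 and 4.76 RPKM in αHetγWT hearts (-4.35 ± 0.45), and Whrn at 1.70 and 2.15 RPKM in αKOγKO and 18.8 and 16.5 RPKM in αHetγWT hearts (-3.32 ± 0.15). Lrat, which esterifies vitamin A for storage, was at 0.152 and 0.0713 RPKM in αKOγKO and 2.52 and 2.59 RPKM in αHetγWT hearts (-4.63 ± 0.46). Rtn4r, the receptor that in neurons binds the growth inhibitor Nogo, fell by 3.70 ± 0.27, and the epithelial integrin subunit Itgb6 fell by 3.35 ± 0.26.

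Epn3, an endocytic adaptor of the epsin family (-4.28 ± 0.36), Klhl33, a kelch-repeat protein (-3.52 ± 0.27), Prss55, a serine protease known from testis (-3.81 ± 0.47), and Tmem74b (-3.33 ± 0.38) completed the group with Nr0b2, Meig1 and Pcp4. Meig1, a gene of sperm formation in mice, was at 0.320 and 0.0357 RPKM in αKOγKO and 1.66 and 2.02 RPKM in αHetγWT hearts (-3.45 ± 0.80). Pcp4, a calmodulin regulator, was at 0.0812 and 0.733 RPKM in αKOγKO and 3.69 and 3.48 RPKM in αHetγWT hearts (-3.25 ± 0.57), and 37.9% of its exon bases in the annotation are shared with Igsf5, so its reads are uncertain. The low αKOγKO counts made these values loose: without αKOγKO replicate 1 they were -5.62 for Meig1, -5.36 for Ush1c, -5.34 for Epn3 and -5.28 for Lrat, and without αKOγKO replicate 2 Pcp4 was at -5.48.

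Among 36 lists of genes with known functions (923 genes tested, median 0.28), the lists differed widely in direction. Mitosis, cytosolic ribosomal proteins, matrix, and tubulins with intermediate filaments had most of their members higher, and potassium channels, nuclear receptors and calcium handling had more members lower than higher. By edgeR 6 lists (217 genes) had 0 members lower, against 21.5% of all genes. In these 0 members were lower at an unadjusted p under 0.05, by DESeq2 or by limma. The lists were picked for their 0 falls in the same counts, so this is no separate support. Single members could stand below 0 without passing, down to -0.65 in the fetal and imprinted list. In the proteasome list 8 of 31 members passed, and in the chromatin list 10 of 26, shares near or under the 42.2% of all genes.

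**Figure D2:**
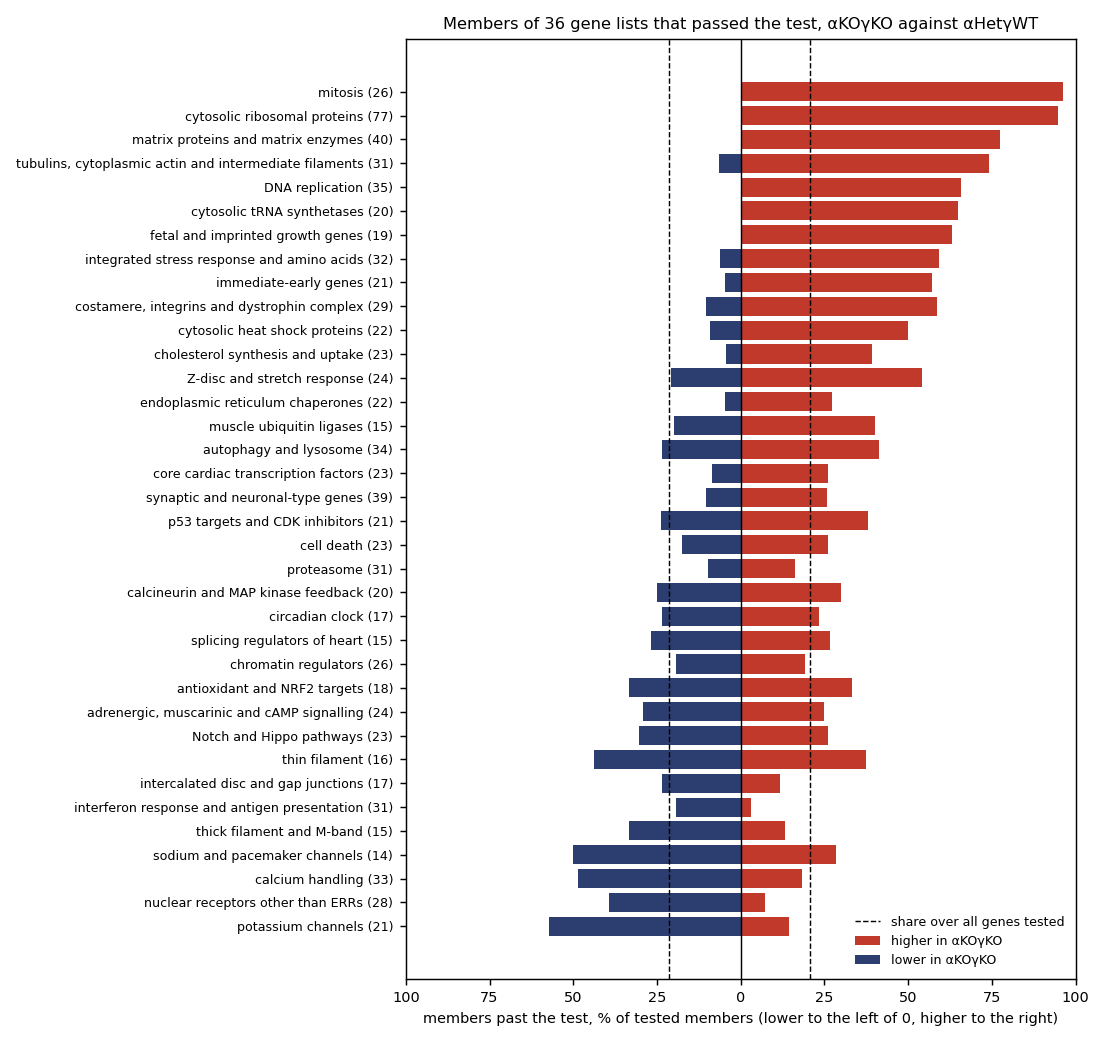
Share of the tested members (number in brackets) of each of 36 gene lists that was higher (right of 0) or lower (left of 0) in αKOγKO than in αHetγWT hearts, with dashed lines at the shares over all genes tested, 20.7% and 21.5%. Mitosis (25 of 26 higher) and cytosolic ribosomal proteins (73 of 77) stand at the top, and potassium channels (12 of 21 lower) at the bottom.

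The sarcomere changed member by member. Of 15 genes of the thick filament and M-band 2 were higher and 5 lower, and of 16 of the thin filament 6 were higher and 7 lower, with list medians of -0.12 and -0.18. The shares that passed were 46.7% and 81.2%, against 42.2% of all genes, so the first list does not stand out. Thick filament members that fell included Myl2, the regulatory light chain of the ventricle (4966 and 6298 RPKM in αKOγKO, 10910 and 10941 RPKM in αHetγWT, -1.08 ± 0.12), its essential partner Myl3 (-0.74 ± 0.09) and Myh7b, an ancient myosin heavy chain that hosts a microRNA (15.5 and 12.2 RPKM in αKOγKO, 37 and 42.8 RPKM in αHetγWT, -1.65 ± 0.14). The rises were Myom1, which crosslinks the M-band (0.28 ± 0.07), and Myl4, the atrial essential light chain (0.66 ± 0.17). Myh6, the main myosin of the adult mouse heart, fell by 0.44 ± 0.10, and Myh7, the fetal myosin, did not pass (-0.12 ± 0.07, edgeR adjusted p = 0.17). Myom1 and Myl4 did not pass without αHetγWT replicate 1 (edgeR adjusted p = 0.07 and 0.081), nor Myl4 and Myh6 without αHetγWT replicate 2 (0.06 and 0.062), and rises of the list numbered 6 without αKOγKO replicate 1.

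In the thin filament the smooth muscle actin Acta2 was at 2608 and 2012 RPKM in αKOγKO and 505 and 474 RPKM in αHetγWT hearts (2.12 ± 0.14), beside the rise of Acta1. The cardiac actin Actc1 did not pass (0.08 ± 0.09). Tpm2, a tropomyosin of slow and smooth muscle, rose (1.58 ± 0.17). Tnni3, the cardiac inhibitory troponin, was at 1824 and 2032 RPKM in αKOγKO and 5413 and 5534 RPKM in αHetγWT hearts (-1.63 ± 0.08), while the fetal form Tnni1 was at 16.7 and 62.7 RPKM in αKOγKO and 11.5 and 12.4 RPKM in αHetγWT hearts (1.60 ± 0.52), higher in both αKOγKO libraries but mainly in αKOγKO 2. The call of Tnni1 was lost in most fits without 1 library, and its value was 0.36 without αKOγKO replicate 2 (edgeR adjusted p = 0.33). Thin filament falls numbered 4 without either αHetγWT library or αKOγKO replicate 1, and rises 3 without αHetγWT replicate 1.

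Pairs of genes whose proteins replace or oppose each other were compared as RPKM ratios within each library. The log2 ratio of Acta1 to Actc1 was -1.96 and -3.12 in αKOγKO and -7.16 and -7.46 in αHetγWT hearts, and that of Tnni1 to Tnni3 was -6.77 and -5.02 in αKOγKO and -8.88 and -8.80 in αHetγWT hearts. Myl7 to Myl2, the atrial to the ventricular regulatory light chain, stood at -1.47 and -1.25 in αKOγKO and -3.07 and -2.96 in αHetγWT hearts. The mean differences of these pairs were 4.77, 2.94 and 1.65, and that of Myl4 to Myl3 was 1.40. The fetal or atrial form thus took a larger part in αKOγKO hearts in each of them, but remained below its partner in every library. Atrial cardiomyocyte markers were higher in 2 of 10 cases and lower in 2 (median -0.15), 40% against 42.2% of all genes. Their sums were 3339 and 4649 RPKM in αKOγKO and 2470 and 2616 RPKM in αHetγWT hearts. That list holds Myl7 and Myl4 themselves, so its sums are not separate from these ratios. Of 4 skeletal muscle markers tested, the fast troponin gene Tnnt3 was higher (10.8 and 3.84 RPKM in αKOγKO, 0.960 and 0.799 RPKM in αHetγWT, 2.94 ± 0.51, and 1.99 without αKOγKO replicate 1), and the list summed to 25.4 and 28.6 RPKM in αKOγKO and 14.5 and 14.1 RPKM in αHetγWT hearts. The part of either in these ratios was not tested.

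The myosin heavy chain pair behaved otherwise in size: Myh7 to Myh6 differed by 0.32, from log2 ratios of -7.73 and -7.84 in αKOγKO and -8.08 and -8.12 in αHetγWT hearts. Hcn4 to Hcn2 differed by 1.30 and Sln to Pln, which both restrain the calcium pump of the sarcoplasmic reticulum, by 1.06, and in each the second gene had the lower fold change (Sln -0.12 ± 0.18, which did not pass, and Pln -1.14 ± 0.22). Cacna1h to Cacna1g, the T-type calcium channels, differed by -2.12, Utrn to Dmd by -0.44 and the connexins Gja5 to Gja1 by -0.23. The groups did not overlap in any of the 10 pairs, a comparison of 2 with 2 libraries in which an exact two-sided permutation test cannot go below p = 0.33. Gja5 to Gja1 nearly touched, at -5.14 and -5.22 in αKOγKO and -4.79 and -5.11 in αHetγWT hearts. Overlap was not counted for other pairs of genes, so this count does not set the 10 pairs apart.

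**Figure D3:**
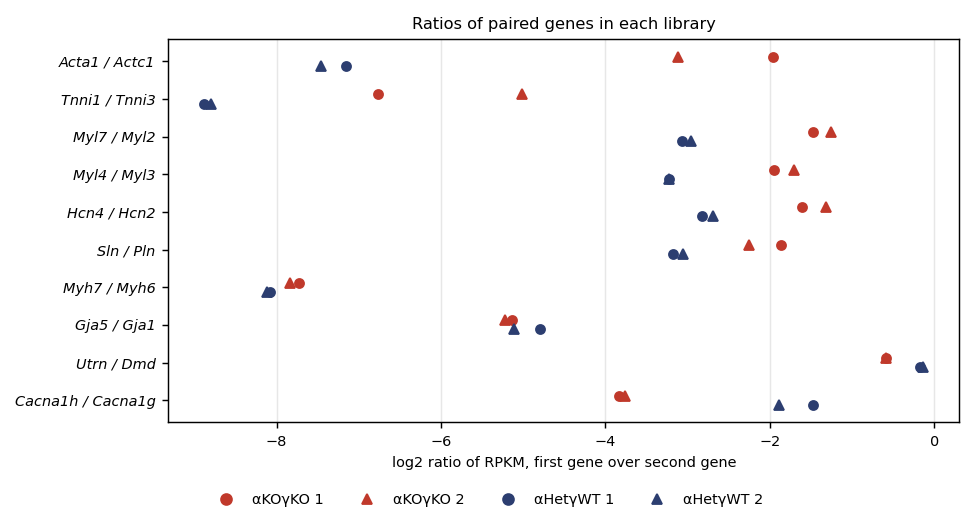
Log2 ratio of the RPKM of paired genes (first over second) in each library, with αKOγKO drawn above αHetγWT in each row and rows ordered by the difference between the groups. Acta1 over Actc1 differs most (mean difference 4.77) and Cacna1h over Cacna1g is the pair that is lowest in αKOγKO relative to αHetγWT (-2.12).

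At the Z-disc, where thin filaments are anchored and stretch is sensed, 13 of 24 genes were higher and 5 lower (median 0.44). Pdlim3, which binds alpha-actinin, was at 87 and 95 RPKM in αKOγKO and 28.6 and 29.2 RPKM in αHetγWT hearts (1.53 ± 0.10), and Actn1, the non-muscle alpha-actinin, rose by 1.14 ± 0.11. Ankrd1, a titin-bound stress protein, was at 3071 and 3343 RPKM in αKOγKO and 329 and 402 RPKM in αHetγWT hearts. The falls were Tcap, the titin cap (131 and 330.2 RPKM in αKOγKO, 789.5 and 913 RPKM in αHetγWT, -2.02 ± 0.34, and -2.82 without αKOγKO replicate 2), Myot (-1.67 ± 0.24), Fhl2, a LIM protein bound to titin (-1.21 ± 0.07), Bag3, a co-chaperone (-0.49 ± 0.07), and Myoz2, a calcineurin-binding protein (-0.33 ± 0.09). Fhl2 fell while its relative Fhl1 rose (544 and 273 RPKM in αKOγKO, 52.8 and 48.3 RPKM in αHetγWT, 2.90 ± 0.28, and 2.30 without αKOγKO replicate 1), a pair picked after the values were seen. Myoz2 did not pass without αHetγWT replicate 2 (edgeR adjusted p = 0.1).

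Costameres tie the Z-disc to the cell surface and matrix, and 17 of 29 genes of costameres, integrins and the dystrophin complex were higher, against 3 lower (median 0.28). Ilk, the integrin-linked kinase (139 and 143 RPKM in αKOγKO, 72.1 and 74.8 RPKM in αHetγWT, 0.82 ± 0.07), shares 81.7% of its annotated exon bases with Taf10 on the opposite strand, so its reads are uncertain. Itgb5 (0.85 ± 0.08) and Itga5 (0.71 ± 0.09), subunits of vitronectin and fibronectin receptors, also rose. The falls were Itgb1bp2, the muscle protein melusin, which binds the integrin tail and is known to protect the pressure-loaded heart (71 and 89.2 RPKM in αKOγKO, 192 and 196 RPKM in αHetγWT, -1.40 ± 0.11), the sarcoglycan Sgca (-0.72 ± 0.10) and the laminin receptor Itga6 (-0.69 ± 0.12). The count of rises was 9 when αHetγWT replicate 1 was left out and 11 when αHetγWT replicate 2 was.

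Of 17 genes of the intercalated disc, which joins cardiomyocytes end to end, 2 were higher and 4 lower. This share of 35.3% was under the 42.2% of all genes, so the list does not stand out. The desmosome genes Dsp (-0.74 ± 0.10), Dsc2 (-0.83 ± 0.08) and Dsg2 (-0.45 ± 0.12) fell with the tight junction scaffold Tjp1 (-0.54 ± 0.09), whereas Pkp2, another desmosome gene (0.44 ± 0.10), and Ctnnb1, beta-catenin (0.54 ± 0.09), rose. Dsg2 did not pass without αHetγWT replicate 1 or 2, nor Pkp2 without αHetγWT replicate 1 (edgeR adjusted p = 0.11, 0.057 and 0.066). The gap junction gene Gja1 did not pass (0.05 ± 0.12), but did without αKOγKO replicate 1 (0.037). Without that library 6 genes of this list were higher and 4 lower, and without αKOγKO replicate 2, 2 were higher and 7 lower.

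Genes of microtubules, cytoplasmic actin and intermediate filaments rose together, 23 of 31 being higher and 2 lower, with a median of 0.87. Tubb5 was at 163 and 168 RPKM in αKOγKO and 64.8 and 67.9 RPKM in αHetγWT hearts (1.2 ± 0.09), and Tubb2a rose by 1.36 ± 0.09, both beta tubulins. Myl9, a regulatory light chain of smooth and non-muscle myosin, was at 1263 and 1392 RPKM in αKOγKO and 203 and 231 RPKM in αHetγWT hearts (2.49 ± 0.18). The falls were Tuba4a (100.03 and 147 RPKM in αKOγKO, 253 and 238 RPKM in αHetγWT, -1.12 ± 0.16) and Tuba8 (-0.65 ± 0.09), both alpha tubulins. The rises numbered 16 and 17 without αHetγWT replicate 1 and 2, and 21 without either αKOγKO library. Smooth muscle and pericyte markers moved both ways beside this group: 3 of 10 were higher and 5 lower, and their summed level was 271.5 to 314.2 RPKM in αKOγKO and 359.6 to 373.2 RPKM in αHetγWT hearts. The markers that rose were Cspg4, Mcam and Cnn1, which is also on the list above, and those that fell were Smtn, Myh11, Kcnj8, Lmod1 and Rgs5. Myh11, a smooth muscle myosin, was at 15.2 and 17.3 RPKM in αKOγKO and 23.8 and 23.7 RPKM in αHetγWT hearts. The part of smooth muscle in the rises of Acta2 and Myl9 was not tested.

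Calcium handling leaned downward, with 16 of 33 genes lower and 6 higher (median -0.27). Cacna1h, a T-type calcium channel, was at 0.795 and 0.840 RPKM in αKOγKO and 4.71 and 4.39 RPKM in αHetγWT hearts (-2.60 ± 0.11). Hrc, which buffers calcium in the sarcoplasmic reticulum, was at 82.9 and 82.7 RPKM in αKOγKO and 344 and 344 RPKM in αHetγWT hearts. Ryr2, the calcium release channel, was at 56.2 and 57.5 RPKM in αKOγKO and 108 and 102 RPKM in αHetγWT hearts (-1.01 ± 0.08), and Cacna2d1, an auxiliary subunit of surface calcium channels, at 13.5 and 14 and 27 and 25.3 RPKM (-1.05 ± 0.07). The αKOγKO libraries lay close together in all of these. The members against the majority were Fkbp1b (1.5 ± 0.37), which stabilises the release channel, Casq1, the calsequestrin of skeletal muscle (1.32 ± 0.23), Jph1, a junctophilin (0.70 ± 0.10), Slc8a1, the sodium-calcium exchanger (0.66 ± 0.13), and the kinase genes Camk2d (0.33 ± 0.07) and Camk2g (0.28 ± 0.09). The falls numbered 11 without αHetγWT replicate 2. Fkbp1b did not pass without that library (edgeR adjusted p = 0.08), and Camk2g did not pass in 5 of the 8 fits without 1 library.

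Potassium channels, which repolarise the heart cell, were lower in 12 of 21 cases, against 21.5% of all genes, with 3 higher and a median of -0.55. Kcnd3, of the transient outward current, was at 0.772 and 1.09 RPKM in αKOγKO and 2.46 and 2.59 RPKM in αHetγWT hearts (-1.57 ± 0.16), and Kcnv2, a silent partner subunit, at 0.213 and 0.155 and 1.12 and 0.785 RPKM (-2.48 ± 0.29). Kcnj8, the pore of an ATP-sensitive channel and also a pericyte marker, fell by 0.86 ± 0.10. The rises were Kcne1 (46.5 and 46.5 RPKM in αKOγKO, 18.1 and 23.3 RPKM in αHetγWT, 1.04 ± 0.13), an accessory subunit, Abcc8 (0.74 ± 0.11), the sulfonylurea receptor of ATP-sensitive channels, and Kcna4 (1.49 ± 0.36), a transient outward channel, which did not pass without αHetγWT replicate 2 (edgeR adjusted p = 0.076) and was at 0.78 without αKOγKO replicate 2. The number of falls was 8 without either αHetγWT library, with library totals and with the 4 libraries alone.

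Sodium and pacemaker channels followed the same direction in 7 of 14 genes, with 4 higher. Hcn2, a pacemaker channel, was at 5.77 and 6.24 RPKM in αKOγKO and 23.6 and 23 RPKM in αHetγWT hearts (-2.08 ± 0.09). Hcn4, the main pacemaker channel of the sinus node, fell by 0.79 ± 0.21, and the skeletal muscle sodium channel Scn4a by 1.10 ± 0.17. Fgf12, an intracellular partner of sodium channels, was at 19.3 and 24.2 RPKM in αKOγKO and 7.29 and 7.19 RPKM in αHetγWT hearts (1.46 ± 0.21). The rises numbered 1 and 2 without αHetγWT replicate 1 and 2, and the call of Hcn4 was lost without these or αKOγKO replicate 1 (edgeR adjusted p = 0.059, 0.091 and 0.064). A floor of 5 RPKM left 3 genes higher and 3 lower.

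**Figure D4:**
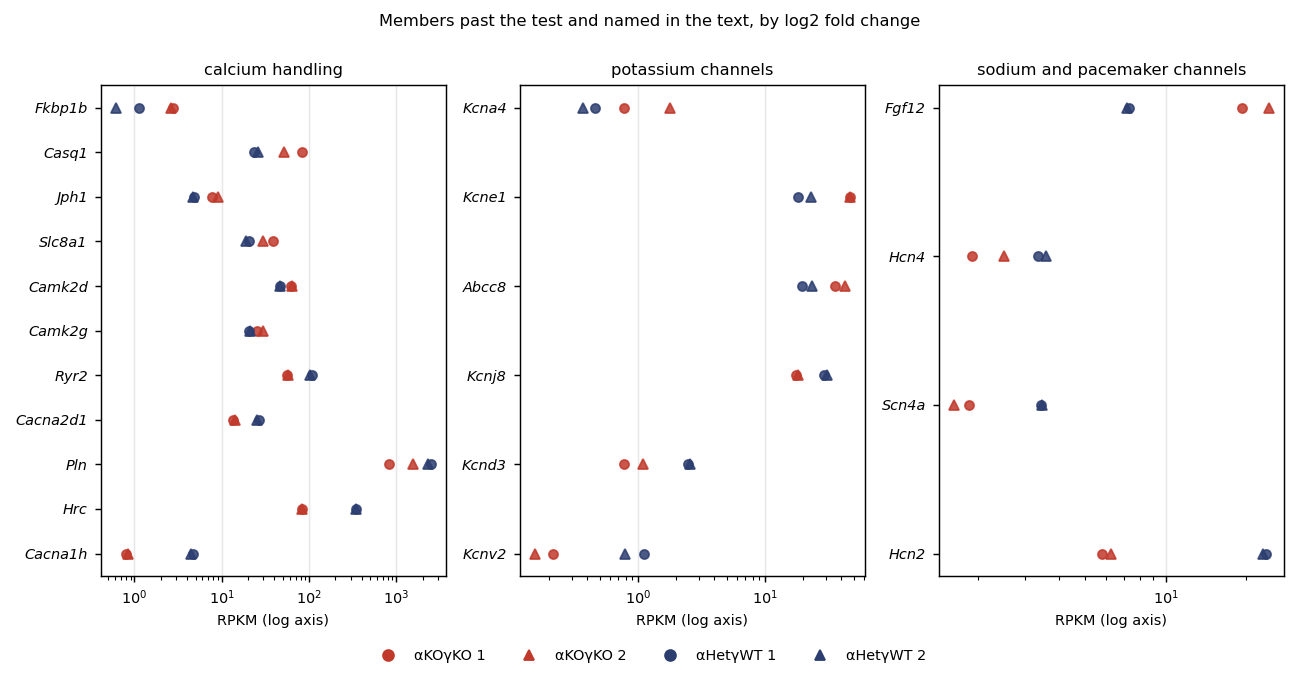
RPKM (log axis) in each library for the members of the calcium handling, potassium channel, and sodium and pacemaker channel lists that passed the test and are named in the text, each panel ordered from the largest rise at the top to the largest fall at the bottom. The falls with the widest gaps between groups are Kcnv2, at a low level, and Cacna1h, Hrc and Hcn2.

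The ERR response element, written here as TNAAGGTCA, was searched on both strands in RefSeq promoter windows (GRCm38.p6, 250 bases before to 50 bases after each start). It was found in 387 of 27025 genes with a window (1.43%). Windows were given for 2447 of the 3127 genes that rose and 2579 of the 3237 that fell, fewer than 80% in both, so a comparison of the shares is void. Over all genes tested, 111 of 11870 with a window held a match (0.94%). Of the genes named by rule 3 held a match, Hcn2 and Myh7b, which fell, and Meg3, which rose. No share is given for the named genes, so these matches do not set them apart from all genes tested. Their windows are shown with the match, which reads on the reverse strand, in capitals. A match is a description of the letters and not a bound site.
Hcn2 (chr10:79716384-79716683, + strand): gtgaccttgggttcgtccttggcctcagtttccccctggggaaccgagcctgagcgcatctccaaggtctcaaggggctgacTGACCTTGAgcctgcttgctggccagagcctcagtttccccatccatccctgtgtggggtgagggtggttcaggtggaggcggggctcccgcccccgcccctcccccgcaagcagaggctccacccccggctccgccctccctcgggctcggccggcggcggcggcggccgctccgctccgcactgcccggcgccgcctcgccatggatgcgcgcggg
Myh7b (chr2:155610993-155611292, + strand): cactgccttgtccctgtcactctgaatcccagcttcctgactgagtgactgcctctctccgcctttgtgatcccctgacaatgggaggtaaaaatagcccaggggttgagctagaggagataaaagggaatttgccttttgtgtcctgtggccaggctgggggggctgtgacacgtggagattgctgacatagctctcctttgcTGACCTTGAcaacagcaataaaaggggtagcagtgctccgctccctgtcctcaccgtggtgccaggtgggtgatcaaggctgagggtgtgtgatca
Meg3 (chr12:109545148-109545447, + strand): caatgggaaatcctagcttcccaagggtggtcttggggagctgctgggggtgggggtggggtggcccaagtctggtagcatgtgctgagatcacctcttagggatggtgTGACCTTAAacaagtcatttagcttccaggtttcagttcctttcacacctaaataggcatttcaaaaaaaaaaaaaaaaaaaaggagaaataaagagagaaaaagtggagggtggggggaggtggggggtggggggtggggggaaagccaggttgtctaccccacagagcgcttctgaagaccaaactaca
In Hcn2 the match begins 168 bases before the start, in Myh7b 46 bases and in Meg3 141 bases before it. The 12 windows of the 15 largest rises and the 13 of the 15 largest falls held 0 matches, which says only that these letters are not in those windows.

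Adrenergic, muscarinic and cAMP signalling moved both ways, 6 of 24 genes being higher and 7 lower, 54.2% against 42.2% of all genes. Prkar1a, the regulatory subunit that holds protein kinase A inactive, was at 567 and 519.5 RPKM in αKOγKO and 154 and 156 RPKM in αHetγWT hearts (1.69 ± 0.09), while the catalytic subunit Prkaca was at 103 and 119 and 151 and 146 RPKM (-0.55 ± 0.08). Akap6, an anchor of the kinase at the nuclear envelope, rose by 0.78 ± 0.11, and Pde4d, which breaks down cAMP, fell by 0.73 ± 0.10. The falls numbered 3 and 4 without αHetγWT replicate 1 and 2.

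Of 23 transcription factors that define heart cells 6 were higher and 2 lower (median 0.22), a share of 34.8% against 42.2% of all genes. The rises included Tbx20 (49.2 and 53 RPKM in αKOγKO, 28 and 28.1 RPKM in αHetγWT, 0.74 ± 0.10) and Tead1, the DNA-binding partner of YAP (0.54 ± 0.07). The falls were Hopx, a homeodomain protein that opposes the factor SRF (88.3 and 158 RPKM in αKOγKO, 298 and 333 RPKM in αHetγWT, -1.49 ± 0.21), and Tbx3, a factor of the conduction system (-0.82 ± 0.12). This list was among the least stable: 11 genes were higher without αKOγKO replicate 1, and without αKOγKO replicate 2, 5 were higher and 5 lower.

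Of the other nuclear receptors 11 of 28 were lower and 2 higher (median -0.30). In all 46.4% passed, against 42.2% of all genes, and 21.5% of all genes were lower. Nr0b2, a receptor that lacks a DNA-binding domain and represses others, was at 0.576 and 0.698 RPKM in αKOγKO and 10.4 and 10.6 RPKM in αHetγWT hearts (-4.16 ± 0.16). Thrb, a thyroid hormone receptor, was at 2.14 and 2.50 RPKM in αKOγKO and 4.98 and 5.77 RPKM in αHetγWT hearts (-1.34 ± 0.12). Ppard, a fatty acid receptor (-0.82 ± 0.08), and Rarg, a retinoic acid receptor (-0.54 ± 0.08), also fell. The rises were Nr4a1 (48.2 and 249 RPKM in αKOγKO, 13.3 and 16.7 RPKM in αHetγWT, 3.17 ± 0.94, and 1.56 without αKOγKO replicate 2) and Nr4a3 (14 and 22 RPKM in αKOγKO, 1.86 and 2.52 RPKM in αHetγWT, 2.91 ± 0.52), receptors induced as immediate-early genes. The rises numbered 5 without αKOγKO replicate 1 and 1 without αKOγKO replicate 2, and Nr4a1 did not pass without αKOγKO replicate 2 or either αHetγWT library. Without αKOγKO replicate 2 the falls numbered 15, and without αHetγWT replicate 2 they numbered 7.

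Cytosolic ribosomal proteins rose in nearly all members. Of 77 genes 73 were higher and 0 lower, against 20.7% higher over all genes, with a median of 0.52 and a range of 0.16 to 1.22. All 77 lay above the mean of the αHetγWT libraries in both αKOγKO libraries, against 6189 of the 15076 genes tested. The median of the list in the αKOγKO libraries was 0.53 and 0.50. Reads of the list made up 3.34% and 3.40% of the αKOγKO libraries and 2.09% and 2.17% of the αHetγWT libraries. Rpl3, of the large subunit, was at 665 and 654 RPKM in αKOγKO and 247 and 273 RPKM in αHetγWT hearts (1.22 ± 0.08), Rpl12 rose by 1.03 ± 0.07, Rpl10 by 0.92 ± 0.08 and Rps12, of the small subunit, by 0.91 ± 0.08 (edgeR adjusted p = 3.2e-05). Rps2, Rplp2 and Rps27 were among those that did not pass. The count was 66 to 76 over all alternatives, the lowest without αHetγWT replicate 1, and the median 0.46 to 0.65. Many ribosomal protein genes have processed pseudogenes of near-identical sequence, so reads of single members are uncertain.

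Other parts of protein synthesis moved in the same direction by smaller amounts. Of 20 cytosolic tRNA synthetases 13 were higher and 0 lower (median 0.40), among them Sars (50.5 and 36.3 RPKM in αKOγKO, 21.2 and 22.3 RPKM in αHetγWT, 0.88 ± 0.15), Yars (0.83 ± 0.11), Aars (0.81 ± 0.10) and Rars (0.58 ± 0.08), which charge tRNAs with serine, tyrosine, alanine and arginine. The count was 9 and 8 without αHetγWT replicate 1 and 2. Atf4, known as a regulator of synthetases and of amino acid enzymes, rose by 0.71 ± 0.08, and its part in these rises was not tested.

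Of 32 genes of the integrated stress response and amino acid synthesis 19 were higher and 2 lower (median 0.74). Of the enzymes of serine synthesis, Psat1 was at 24.1 and 21 RPKM in αKOγKO and 2.33 and 2.29 RPKM in αHetγWT hearts, Phgdh at 22.1 and 7.24 and 2.60 and 2.21 RPKM (2.49 ± 0.45), and Mthfd2, a mitochondrial folate enzyme, at 33.2 and 8.53 and 2.50 and 2.11 RPKM (3.07 ± 0.54). Phgdh and Mthfd2, picked after their values were seen, were several times higher in αKOγKO 1 than in αKOγKO 2, and Psat1 was alike in both. Without αKOγKO replicate 1 Phgdh was at 1.45 and Mthfd2 at 1.75. Psph, the last enzyme of serine synthesis, did not pass (-0.13 ± 0.14). Ppp1r15a, which reverses the translational block of the response, rose by 1.42 ± 0.11. Ddit3, the death-associated factor CHOP, did not pass (0.06 ± 0.13). The members that fell were Ddit4, an inhibitor of the growth kinase mTORC1 (64 and 47.5 RPKM in αKOγKO, 105 and 113 RPKM in αHetγWT, -1.09 ± 0.15), and Cth, of cysteine synthesis (-1.87 ± 0.46). Rises numbered 11 without αHetγWT replicate 1. Cth did not pass without that library or αKOγKO replicate 1 (edgeR adjusted p = 0.093 and 0.053).

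Chaperones were read in a cytosolic list and one of the endoplasmic reticulum. Of 22 cytosolic heat shock genes 11 were higher and 2 lower (median 0.25), led by Hspa1a (6.49 and 6.81 RPKM in αKOγKO, 1.36 and 1.51 RPKM in αHetγWT, 2.08 ± 0.24), whose sequence is nearly that of Hspa1b so that reads of the pair are uncertain, Hspb1 (484 and 577 RPKM in αKOγKO, 213 and 228 RPKM in αHetγWT, 1.14 ± 0.11), Hsp90aa1 (0.86 ± 0.11) and Dnaja4 (0.56 ± 0.07). The falls included Hspb8, which works with Bag3 (-0.41 ± 0.07). Rises numbered 6 without αHetγWT replicate 2 and 9 without αKOγKO replicate 2. Of 22 chaperones and sensors of the endoplasmic reticulum 6 were higher and 1 lower, a share under the 42.2% of all genes. Herpud1, of the degradation pathway, fell to 52.1 and 61.7 RPKM in αKOγKO, against 109.8 and 121 RPKM in αHetγWT hearts (-1.15 ± 0.10). That list had 2 rises without αHetγWT replicate 1, 3 without αKOγKO replicate 1 and 9 without αKOγKO replicate 2.

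Degradation genes showed no common direction. Of 34 genes of autophagy and lysosome 14 were higher and 8 lower. The lysosomal glucosidase Gaa was at 84.2 and 80.1 RPKM in αKOγKO and 32.9 and 34.6 RPKM in αHetγWT hearts (1.16 ± 0.07), Grn, progranulin, rose by 0.94 ± 0.08 and the protease Ctsl by 0.75 ± 0.08, whereas Map1lc3a, which coats autophagosomes, fell to 281 and 313 RPKM, against 445 and 460.4 RPKM in αHetγWT hearts (-0.73 ± 0.08). Among 15 muscle ubiquitin ligases 6 were higher and 3 lower: Fbxo32, known as atrogin-1, fell by 1.00 ± 0.16, Asb2 by 0.98 ± 0.16 and Mul1, of the mitochondrial surface, by 0.91 ± 0.07, and Nedd4 rose by 0.42 ± 0.07. In the proteasome 5 of 31 genes were higher and 3 lower, with a median of 0.04. With library totals 13 proteasome genes were higher and 2 lower, and without αKOγKO replicate 1, 9 were higher. Rises of autophagy and lysosome genes numbered 8, and those of ubiquitin ligases 2, without either αHetγWT library.

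Cell cycle genes rose at low levels. Of 26 genes of mitosis 25 were higher and 0 lower (median 1.71), and of 35 of DNA replication 23 were higher and 0 lower (median 0.73). Cdk1, the mitotic kinase, was at 7.62 and 3.22 RPKM in αKOγKO and 1.25 and 1.11 RPKM in αHetγWT hearts (2.08 ± 0.38), Anln, a protein of the cleavage furrow, at 5.52 and 2.34 and 0.804 and 0.677 RPKM (2.29 ± 0.39), and Ect2, which starts cytokinesis, rose by 1.77 ± 0.30. Lig1, the replicative DNA ligase, was at 6.01 and 5.35 RPKM in αKOγKO and 1.93 and 2.12 RPKM in αHetγWT hearts (1.36 ± 0.15), and the helicase gene Mcm6 rose by 0.97 ± 0.12. Cenpf did not pass (0.51 ± 0.33), but did without αKOγKO replicate 2 (edgeR adjusted p = 0.011).

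The αKOγKO libraries were both above αHetγWT but far apart in mitosis. The median of that list over the αHetγWT mean was 2.11 in αKOγKO 1 and 0.99 in αKOγKO 2, and for DNA replication it was 0.82 and 0.50. Without αKOγKO replicate 1, 17 mitosis genes were higher, with a median of 1.00 and values of 1.31 for Cdk1 and 1.53 for Anln, and without αHetγWT replicate 1 and 2 the counts were 13 and 11. The replication counts without these were 15 and 14, and 21 without αKOγKO replicate 1. A floor of 5 RPKM left no mitosis gene to test and 7 rises in replication. Macrophage markers stood higher in the same library: their median over the αHetγWT mean was 0.86 in αKOγKO 1 and -0.08 in αKOγKO 2, with summed levels of 374.4 and 244.6 RPKM, against 183.4 to 209.2 RPKM in αHetγWT hearts, and 4 of 15 were higher (11 without αKOγKO replicate 2 and 1 without αKOγKO replicate 1). Their part in the mitosis result was not tested.

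Inhibitors of the cycle split. Of 21 p53 targets and inhibitors 8 were higher and 5 lower. Cdkn1a, which encodes p21, was at 89.1 and 84.4 RPKM in αKOγKO and 47.2 and 46.8 RPKM in αHetγWT hearts (0.76 ± 0.07), while Cdkn1c, which encodes p57, was at 7.98 and 9.33 and 20.02 and 19.5 RPKM (-1.32 ± 0.11). Phlda3, an inhibitor of Akt, rose by 1.12 ± 0.12, and Gadd45a, of DNA damage response, fell by 1.51 ± 0.18.

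Fetal and imprinted growth genes were higher in 12 of 19 cases and lower in 0 (median 0.56). Mest, a paternally expressed gene, was at 78.4 and 69.6 RPKM in αKOγKO and 11.1 and 13.6 RPKM in αHetγWT hearts (2.46 ± 0.16), although 32.9% of its exon bases are shared with Copg2 on the opposite strand. Igf2bp3, a fetal RNA-binding protein, was at 2.50 and 2.33 RPKM in αKOγKO and 0.503 and 0.488 RPKM in αHetγWT hearts (2.16 ± 0.18), and 35.2% of its exon bases are shared with Malsu1. Plagl1, a zinc finger regulator of imprinted genes, rose by 1.35 ± 0.11, and Meg3, a long noncoding RNA, by 0.97 ± 0.11. The αKOγKO libraries were close together in all 4, and the count of the list was 8 to 14 over all alternatives.

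Immediate-early genes, which respond within minutes to stimulation, were higher in 12 of 21 cases and lower in 1 (median 1.03), but chiefly in 1 library. Fos was at 6.24 and 203 RPKM in αKOγKO and 2.36 and 2.75 RPKM in αHetγWT hearts, Fosb at 0.826 and 92.5 and 0.272 and 0.407 RPKM, and Atf3 at 10.2 and 140.3 and 3.22 and 3.34 RPKM. Egr1, picked after its values were seen, was at 14.2 and 122 RPKM in αKOγKO and 5.83 and 7.18 RPKM in αHetγWT hearts. In each of these αKOγKO 1 stood above both αHetγWT libraries, and αKOγKO 2 stood far above all 3. Egr1 did not pass without αHetγWT replicate 1 or 2 (edgeR adjusted p = 0.079 and 0.061).

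Without αKOγKO replicate 2 the values of Fosb, Fos, Atf3 and Egr1 were 1.15, 1.16, 1.51 and 1.01, against 6.95, 5.21, 4.38 and 3.25 with both libraries, and these calls were lost without either αHetγWT library. Fosb and Fos also did not pass with limma on log2(RPKM + 1), and Fosb did not pass with the 4 libraries alone. The median of the list over the αHetγWT mean was 0.39 in αKOγKO 1 and 1.42 in αKOγKO 2. Members were higher in 9 cases and lower in 3 without αKOγKO replicate 2, and higher in 5 without either αHetγWT library. Maff (11.7 and 15.9 RPKM in αKOγKO, 4.35 and 4.30 RPKM in αHetγWT, 1.55 ± 0.16), Ier3 (0.73 ± 0.10) and Myc (1.19 ± 0.20) were the members with the smallest adjusted p, and they were elevated in both αKOγKO libraries. Klf2, a factor of flow-exposed endothelium, fell by 0.54 ± 0.18, a call that was lost in 5 of the 8 fits without 1 library.

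**Figure D5:**
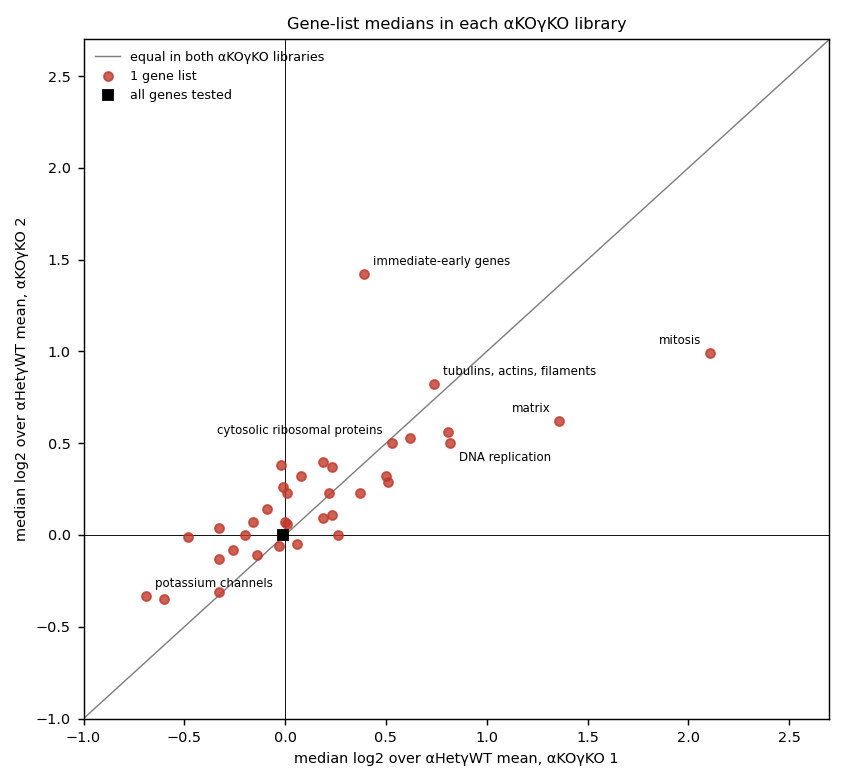
Median log2 level of each of 36 gene lists over the αHetγWT mean in αKOγKO 1 (x axis) and αKOγKO 2 (y axis), with the line of equality and the median of all genes tested. Mitosis (2.11 and 0.99) and matrix (1.36 and 0.62) lie below the line, immediate-early genes (0.39 and 1.42) above it, and cytosolic ribosomal proteins (0.53 and 0.50) close to it.

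Matrix proteins and enzymes were higher in 31 of 40 cases and lower in 0 (median 1.12). Cilp, a cartilage matrix protein, was at 48.3 and 23.3 RPKM in αKOγKO and 3.17 and 2.68 RPKM in αHetγWT hearts, Lox, which crosslinks collagen and elastin, at 36.2 and 15.9 and 4.02 and 4.04 RPKM (2.58 ± 0.34), and Vcan, versican of the fetal matrix, at 10.6 and 7.78 and 1.77 and 2.07 RPKM (2.13 ± 0.20). Col12a1 rose by 2.84 ± 0.38. The reads of the list made up 4.04% and 2.30% of the αKOγKO libraries and 1.34% and 1.43% of the αHetγWT libraries, so that αKOγKO 1 was well above αKOγKO 2. Without αKOγKO replicate 1 the median was 0.64 with 29 genes higher, and Cilp, Lox and Col12a1 were at 2.86, 1.85 and 2.04. Fibroblast markers moved in the same direction: 7 of 12 were higher and 0 lower, with summed levels of 1789 to 2097 RPKM in αKOγKO and 1364 to 1374 RPKM in αHetγWT hearts. Col1a1, Lum and Dcn are on both lists, so the shared direction is in part the same genes. Tcf21 was among the fibroblast rises, and Pdgfra did not pass (0.32 ± 0.14, and 0.06 to 0.53 over the fits without 1 library). Fibroblast rises numbered 3 and 4 without αHetγWT replicate 1 and 2, and 10 without αKOγKO replicate 2. The part of fibroblast number in the matrix result was not tested.

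Markers of other cells were read for the whole lists. Cardiomyocyte markers summed to 25990 and 31950 RPKM in αKOγKO and 43270 to 44350 RPKM in αHetγWT hearts, with 6 of 8 lower and Actn2, sarcomeric alpha-actinin, higher (0.60 ± 0.09). Endothelial markers were lower in 10 of 15 cases and higher in 1, with sums of 1856 to 1982 RPKM in αKOγKO and 2426 to 2642 RPKM in αHetγWT hearts. Of 8 erythroid markers 0 passed by edgeR, 0 at an unadjusted p under 0.05 and 0 by DESeq2 or limma, while with the 4 libraries alone 6 were lower. Their sums were 1259 to 1386 RPKM in αKOγKO and 2100 to 2204 RPKM in αHetγWT hearts. No marker of epicardium (8 genes), T and B cells (8), neutrophils (3), Schwann cells and neurons (10) or adipocytes (7) passed, so edgeR gave 0 calls among these 36. At an unadjusted p under 0.05 there were 4, DESeq2 called 2 and limma 5. These lists were taken for their 0 calls in the same counts, against 42.2% of all genes that passed. T and B cell markers summed to 4.12 to 6.67 RPKM and neutrophil markers to 4.29 to 8.05 RPKM over the 4 libraries. At such levels 0 calls does not show that these cells were unchanged. Markers of lung and liver, tissues that a dissection could carry along, summed to 66.16 to 95.73 RPKM in αKOγKO and 19.96 to 50.83 RPKM in αHetγWT hearts, mainly the airway gene Scgb1a1, which did not pass (1.03 ± 1.23). Of the 4 tested, Ttr, a liver gene, was higher (1.71 and 2.58 RPKM in αKOγKO, 0.388 and 0.132 RPKM in αHetγWT, 2.91 ± 0.60, and 3.85 without αHetγWT replicate 1), and the median of the list was 2.11.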

How the data were processed

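RNA of whole hearts from 16-day-old littermates was sequenced by the authors' sequencing centre as paired-end Illumina reads from TruSeq libraries, 2 pools for each of 4 genotypes. The deposited tables give for each library the whole-number count of uniquely assigned reads per NCBI gene, the deposited gene length and RPKM values, which the authors computed from that count, the length and the library total. A deposited coverage score was not used. The build is mm10 per the labels. The aligner, the counter, their settings and the strandedness of the counting are not given in the sources used here. No gene of the mitochondrial chromosome is in the tables, and 44 of 18656 genes have no symbol.

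Counts were joined by gene identifier and tested in R 4.3.3 with edgeR 4.0.16 (quasi-likelihood F test, TMM factors, low genes dropped by filterByExpr at a count of 10 and a total of 15), in 1 fit of all 8 libraries with a mean for each genotype and 4 residual degrees of freedom. P-values were adjusted over the 15076 genes kept, and the threshold was 0.05. The precision follows from 28.2 to 36.8 M (1e6) counted reads per library and from 2 pools per group. The fit was tested on simulated counts for this comparison, with folds of 0.25, 0.5, 2 and 4 set in 50 genes each. Of these 92%, 76%, 74% and 98% were called, and 10 of 14668 unchanged genes. In the data 42.2% of genes passed, a far larger share than was changed in the simulation. These rates therefore do not carry over to the reported calls.

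The gene lists and the rules were chosen with earlier results of these data known. Symbols were matched to the current symbol and then to synonyms (3 matches), and lists are described by counts and medians with no set test. Named genes were Esrra and Esrrg, the 15 largest rises and falls among genes that passed, averaged 1 RPKM or more and did not overlap between groups, leaving out energy metabolism, secreted candidates and uncharacterised transcripts, up to 4 genes of smallest adjusted p per list, the paired genes, the sex-linked genes and members against the majority of their list. Other genes named were chosen after their values were seen, and a few genes that the rule takes in are not reported here. List medians in single libraries used a pseudocount of 0.5 reads.

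Alternatives were DESeq2 1.42.0 and its size factors, library totals, upper-quartile factors, limma 3.58.1 on log2(RPKM + 1), no filter on low counts, a floor of 5 RPKM, the 4 libraries alone, a replicate block, the mean of the 3 other genotypes as reference, and each library left out. Ratios of paired genes were also computed on RPKM + 1. Promoters came from RefSeq (GRCm38.p6). Besides the genes named as such in the results, Dnaja4, Smyd2, Cdkn1c, Ctsl, Hopx, Spry1 and Aars share 23.1% to 44.6% of their exon bases with another gene, so their reads are uncertain.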

Additional observations from a re-analysis of the deposited data

How the results depend on the processing

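Main counts were 3127 genes higher and 3237 lower in αKOγKO hearts. Over the 8 fits that each left out 1 library, the higher genes numbered 1895 to 3137 and the lower genes 2309 to 3483, and both lowest counts came without αHetγWT replicate 1. With αHetγWT replicate 1 or 2 left out, the single library of that group is assumed to vary like the others. DESeq2 called 2889 and 3022 genes, upper-quartile scaling 3531 and 2925, a floor of 5 RPKM 2186 and 2331 of 8269, the mean of the 3 other genotypes as reference 3582 and 3497, and the 4 libraries alone 2491 and 2578. A fit with the replicate number as a block gave 3089 and 3198. Libraries with the same number did not deviate together (r of -0.18 to 0.09 between genotypes), so the numbers do not pair the libraries.

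Of the 172 genes that are Esrra, Esrrg, the largest changes or those of smallest adjusted p in a list, all of which passed the test, 162 kept their call and direction under all 18 alternatives. Apart from Esrra and Esrrg, these genes were chosen for large changes or small adjusted p in these same data. Their stability therefore does not describe all genes that passed. The other 10 lost the call under 1 or more and none reversed. Fos, Fosb, Atf3 and Nr1d2 lost it without either αHetγWT library, Spred2 without αHetγWT replicate 2, and Creld2, Per2, Rcan1, Spry1 and Tap2 without αHetγWT replicate 1. Fos, Fosb and Nr1d2 also lost it with limma and Fosb with the 4 libraries alone. Of the genes named in the text that did not pass, Myh7 stood at 0.00 with library totals and with limma and Sln at 0.01 with library totals. Over the fits without 1 library Sln was at -0.39 to 0.11, Cenpf at -0.10 to 0.92 and Gja1 at -0.17 to 0.24, with αKOγKO replicate 1 or 2 left out at each end, and Psph at -0.28 to 0.04, with αHetγWT replicate 1 or 2 left out. Counting every gene taken in by the rule or named in the text, 191 of 224 kept their side of the threshold and direction throughout. Of those that did not, and beside the fits without 1 library given with their values, Dsg2, Klf2 and Myoz2 did not pass with library totals, while Pdgfra did. Dsg2, Hcn4, Klf2, Myoz2 and Tnni1 did not pass with limma, Camk2g, Dsg2, Klf2 and Tnni1 with the 4 libraries alone, Klf2 with upper-quartile scaling and Tnni1 against the mean of the 3 other genotypes. Over the gene lists, 152 of 1296 recomputed counts moved by more than 1.5 times, 127 of them below the reported count and 25 above it.

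With 2 pools in each group, the 4 libraries alone left 2 residual degrees of freedom and the fit of all 8 left 4. In simulated counts for this comparison 98% of genes changed by 4-fold upward and 74% of those changed by 2-fold upward were recovered. Few genes were changed in that simulation, so these rates do not carry over to the reported calls. Genes at low level are limited by counts, and limma on log2(RPKM + 1) gives smaller values for these by construction.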

Other observations

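In the circadian clock 4 of 17 genes were higher and 4 lower, 47.1% against 42.2% of all genes, so this list does not stand out. Bhlhe41 (1.51 ± 0.15) and Bhlhe40 (0.64 ± 0.13), repressors of the clock, rose, and Per2, another repressor, was at 7.62 and 7.23 RPKM in αKOγKO and 10.1 and 9.30 RPKM in αHetγWT hearts (-0.51 ± 0.12). Tissues were taken in the afternoon per the study's methods. Per2 and Nr1d2 (-0.51 ± 0.13) lost their calls without αHetγWT replicate 1, with edgeR adjusted p of 0.063 and 0.068. Of 23 genes of cholesterol synthesis and uptake 9 were higher and 1 lower, 43.5% against 42.2% of all genes. Srebf2, a regulator of the pathway, was at 13.1 and 18 RPKM in αKOγKO and 7.25 and 7.43 RPKM in αHetγWT hearts (0.95 ± 0.14). Without αKOγKO replicate 2, 6 were higher and 3 lower, and with a floor of 5 RPKM 2 were higher.

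In the Notch and Hippo pathways 6 of 23 genes were higher and 7 lower. The falls were all Notch genes, including the ligand Dll4 (6.56 and 6.57 RPKM in αKOγKO, 13.3 and 11.6 RPKM in αHetγWT, -1.04 ± 0.14) and the target Hey1 (-0.84 ± 0.11), and the rises were Yap1 (0.48 ± 0.07), its relative in TEAD binding Vgll3 (1.40 ± 0.22), the TEAD gene Tead3 (0.49 ± 0.10), and 3 genes of Notch signalling, the DNA-binding factor Rbpj (0.24 ± 0.07) and the targets Hes1 (0.60 ± 0.11) and Heyl (0.45 ± 0.11). The calls of Heyl and Rbpj were lost without either αHetγWT library, and that of Rbpj also without αKOγKO replicate 1, by DESeq2 and with the 4 libraries alone. Endothelial markers, in whose cells Dll4 is known to be made, were lower in 10 of 15 cases, and their part in this was not tested.

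Of 18 antioxidant genes 6 were higher and 6 lower. The metallothionein Mt2 (189 and 137 RPKM in αKOγKO, 31.2 and 36.7 RPKM in αHetγWT, 2.14 ± 0.24), whose exon bases are shared to 73.5% with an uncharacterised gene on the other strand, and Gpx1 (0.59 ± 0.08) rose. Gsta4, which detoxifies lipid aldehydes, was at 11.8 and 12.8 RPKM in αKOγKO and 47 and 43.8 RPKM in αHetγWT hearts (-2.01 ± 0.10), and Prdx6 fell by 0.66 ± 0.06. Among 23 genes of cell death 6 were higher and 4 lower, 43.5% against 42.2% of all genes, so this list does not stand out. Bid (1.94 ± 0.34) and the protective Bcl2 (1.16 ± 0.22) rose, and the BH3-only gene Bmf (-0.79 ± 0.11) fell. The rises in cell death numbered 2 without αHetγWT replicate 1.

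The splicing regulators Rbfox1 (2.87 and 6.36 RPKM in αKOγKO, 10.6 and 10.5 RPKM in αHetγWT, -1.32 ± 0.28, and -1.99 without αKOγKO replicate 2) and Mbnl1 (-0.38 ± 0.07) fell and Ptbp1, which represses muscle exons, rose (0.37 ± 0.07). Of 31 interferon and antigen presentation genes 1 was higher and 6 lower, among them Irf1 (-1.01 ± 0.13), a share under the 42.2% of all genes. The falls numbered 2 without αHetγWT replicate 1, and the median of the list over the αHetγWT mean was 0.25 in αHetγWT 1 and -0.30 in αHetγWT 2. Of chromatin regulators Smyd2 (1.02 ± 0.08) and the maintenance methylase Dnmt1 (0.68 ± 0.08) rose and Dnmt3a (-0.54 ± 0.09) and Tet2 (-0.63 ± 0.09) fell. In a list of synaptic genes that held Grin2c, 10 of 39 were higher and 4 lower, so its share was also under that of all genes, and 5 were higher without αHetγWT replicate 1.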
